A study of Mus musculus with 16 samples.

Results

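The Hox genes encode homeodomain transcription factors that mark position along the axis of the body. They were read here in cells that the authors named fibroblasts or neuroblastoma in subcutaneous neuroblastoma grafts. The members are the rows of the deposited matrix named Hoxa, Hoxb, Hoxc or Hoxd followed by a number alone, which gave 29 genes of the 19715 with a row, out of 39 Hox genes in the mouse. By cluster these are 9 of 11 Hoxa genes on chromosome 6, 7 of 10 Hoxb genes on chromosome 11, 6 of 9 Hoxc genes on chromosome 15 and 7 of 9 Hoxd genes on chromosome 2. Hoxa11, Hoxa13, Hoxb1, Hoxb6, Hoxb13, Hoxc11, Hoxc12, Hoxc13, Hoxd1 and Hoxd13 were not analysed here.

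The 39 genes sit in 4 clusters, and within each cluster the gene order mirrors where the genes are used: low-numbered genes in the neck and chest, high-numbered ones in the lower trunk, tail, limbs and genitals. Polycomb proteins keep the unused end of a cluster silent, and trithorax proteins keep the used end active, so that a cell keeps the code of its place of origin; adult fibroblasts carry such codes. Hox proteins bind DNA together with Pbx, Meis and Pknox cofactors.

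The KO grafts grew in male C57BL/6 mice labelled CD200R-/-, which lack the inhibitory CD200 receptor of myeloid cells, although the growth protocol writes CD200-/-. The WT grafts grew in wild type males of the same strain. All mice were 8 weeks old when NB9464D cells, a mouse neuroblastoma line, were injected, and tumors were taken on day 28. The deletion is therefore one of the host, and the same line was grafted in both groups. Tumors were digested with collagenase and read by droplet 3′ sequencing, either whole (KO tumor and WT tumor) or after sorting of CD45+ leukocytes (KO sorted and WT sorted). The labels list 16 samples, 4 a group, but each cell carries only its group's name, so each group counted as 1 library and no comparison has a replicate check. Whether a cell came from the host or from the graft is not recorded.

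The whole-tumor libraries held 5897 KO and 4955 WT cells with 103877007 and 103277632 UMIs, that is, counted RNA molecules. Of these, 2493 KO and 2461 WT cells were named fibroblasts, with a median of 18136 and 18299 UMIs a cell. Another 1283 KO and 1665 WT cells were named neuroblastoma, with a median of 31582 and 27927 UMIs. Pairs of libraries shared 42 to 72 cell barcodes; among the cells used, 6 KO and 10 WT cells named fibroblasts and 5 KO and 9 WT cells named neuroblastoma had a shared barcode. The names were checked against markers. Of 10 fibroblast markers all had a row, and their summed level was 2681 CPM (UMIs per 1000000 UMIs of the cells of that name) in KO and 3593 CPM in WT cells named fibroblasts, and 1347 CPM in KO and 2966 CPM in WT cells named neuroblastoma. Of 15 sympathetic neuroblast markers 8 had a row, Th and Dbh not among them, and they summed to 355 CPM in KO and 200 CPM in WT cells named fibroblasts and to 268 CPM in KO and 176 CPM in WT cells named neuroblastoma, most of it Hand2. The neuroblast markers were thus not higher under the name neuroblastoma, and the names are used here only as the authors' labels. Leukocyte markers summed to 32.4 CPM in KO and 12.3 CPM in WT cells named fibroblasts, and to 28.2 CPM in KO and 13.4 CPM in WT cells named neuroblastoma. Erythroid markers summed to 225 CPM in KO and 792 CPM in WT cells named fibroblasts and to 141 CPM in KO and 665 CPM in WT cells named neuroblastoma. The results without cells holding 2 or more UMIs of leukocyte, endothelial or erythroid markers, which leaves 1624 KO and 999 WT cells named fibroblasts and 656 KO and 479 WT cells named neuroblastoma, are given beside the ratios of Hoxd11, Hoxd10, Hoxc8, Hoxc9 and Hoxd9. Cd200r1, the receptor gene, had 5 UMIs in the KO tumor library and 76 in the WT tumor library, and 0 in the KO sorted against 2888 in the WT sorted library. Of the 5, 2 were in cells named fibroblasts and 3 in cells named neuroblastoma. Whether its 3′ tag lies in the deleted stretch is not given. Cd200, the gene that the growth protocol names, had 180 UMIs in the KO tumor and 81 in the WT tumor library. In the sorted libraries it had 1482 UMIs in KO and 692 in WT, that is, 50.8 and 11.1 per 1000000 UMIs of the library.

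The largest differences lay at one end of the Hoxd cluster, where Hoxd12, Hoxd11 and Hoxd10 were nearly without RNA in KO grafts while Hoxd9, 2621 bases further on, was not. Their promoters are shown to set the silent genes beside the active neighbour. The sequences are RefSeq's for GRCm38.p6, from 250 bases before to 50 after each start. They run 5′ to 3′ in the order of the genes along chromosome 2, and capitals mark matches on either strand to motifs that were searched: the CCAAT box, the GC box GGGCGG, the core TTTATG of sites bound by proteins of Hox groups 9 to 13, and TGATTNAT, which Hox and Pbx proteins bind together. A second start of Hoxd11 lies further downstream.
Hoxd12 promoter, chr2:74674763-74675062, + strand: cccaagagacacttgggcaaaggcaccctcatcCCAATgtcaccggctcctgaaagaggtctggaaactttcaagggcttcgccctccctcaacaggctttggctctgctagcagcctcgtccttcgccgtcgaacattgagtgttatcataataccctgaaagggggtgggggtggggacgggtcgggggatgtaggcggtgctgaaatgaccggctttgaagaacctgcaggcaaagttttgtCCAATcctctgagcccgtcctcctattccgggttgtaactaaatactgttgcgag
Hoxd11 promoter, chr2:74679308-74679607, + strand: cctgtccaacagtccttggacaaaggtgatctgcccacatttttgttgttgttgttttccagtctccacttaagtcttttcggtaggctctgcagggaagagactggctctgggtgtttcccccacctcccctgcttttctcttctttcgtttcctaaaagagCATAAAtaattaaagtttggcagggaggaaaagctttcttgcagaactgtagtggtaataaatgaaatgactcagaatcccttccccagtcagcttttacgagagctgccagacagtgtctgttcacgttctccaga
Hoxd11 promoter, chr2:74682073-74682372, + strand: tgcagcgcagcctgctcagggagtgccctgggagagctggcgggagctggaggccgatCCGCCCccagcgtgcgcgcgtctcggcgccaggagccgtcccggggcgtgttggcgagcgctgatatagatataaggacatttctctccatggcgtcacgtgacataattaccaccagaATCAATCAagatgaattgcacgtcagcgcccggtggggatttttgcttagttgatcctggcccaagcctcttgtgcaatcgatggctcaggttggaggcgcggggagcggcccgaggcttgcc
Hoxd10 promoter, chr2:74691641-74691940, + strand: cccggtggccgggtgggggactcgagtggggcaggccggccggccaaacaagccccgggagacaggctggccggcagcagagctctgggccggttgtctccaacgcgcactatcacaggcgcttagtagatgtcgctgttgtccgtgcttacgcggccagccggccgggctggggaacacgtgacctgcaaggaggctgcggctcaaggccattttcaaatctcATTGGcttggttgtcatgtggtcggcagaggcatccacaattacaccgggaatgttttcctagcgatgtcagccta
Hoxd9 promoter, chr2:74697513-74697812, + strand: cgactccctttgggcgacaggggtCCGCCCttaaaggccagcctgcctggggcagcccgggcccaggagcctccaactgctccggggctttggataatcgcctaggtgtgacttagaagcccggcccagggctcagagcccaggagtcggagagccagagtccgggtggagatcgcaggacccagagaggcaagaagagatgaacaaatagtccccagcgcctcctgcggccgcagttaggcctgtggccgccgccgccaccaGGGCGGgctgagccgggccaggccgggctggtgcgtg
The capitals are CCAAT boxes on the given strand for Hoxd12 and 1 on the opposite strand for Hoxd10, the core motif of groups 9 to 13 on the opposite strand at the first Hoxd11 start, and a GC box and the Hox and Pbx motif on the opposite strand at its second start. Hoxd9 has a GC box on each strand. The TATA box, TATAAA, was also searched and is in none of the 5. Of 32851 promoters of the same length, 37.4% hold the CCAAT box, 35.7% the GC box, 13.6% the TATA box, 11.85% the core motif of groups 9 to 13 and 3.22% the Hox and Pbx motif. CpG dinucleotides numbered 13 at Hoxd12, 4 and 25 at the Hoxd11 starts, 22 at Hoxd10 and 20 at Hoxd9, against a median of 7 over all promoters. The silent genes thus lie on both sides of Hoxd9 in CpG content. In the mm10 annotation (GENCODE M21) Hoxd12 spans chr2:74675013-74677705, Hoxd11 chr2:74679557-74687016, Hoxd10 chr2:74691924-74695105 and Hoxd9 chr2:74697727-74700208, all protein-coding on the + strand. Hoxd10 and Hoxd11 overlap a further annotated gene, Gm28309, so reads there are uncertain where the counting could split them.

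Hoxd11, which with its Hoxa paralog patterns the forearm and the kidney, had 5 UMIs in KO and 3590 UMIs in WT cells named fibroblasts, and 0 UMIs in KO and 4506 UMIs in WT cells named neuroblastoma. These are 0.106 CPM in KO and 74.6 CPM in WT cells named fibroblasts, and under 0.0719 CPM (the level of 3 UMIs) in KO and 89.6 CPM in WT cells named neuroblastoma. The gene was thus the Hox gene with most UMIs in WT grafts and close to absent in KO grafts under both names. Ratios below are log2 values, KO over WT, set against the median gene, with an exact 95% interval that covers counting error only. The median gene was itself higher in KO by 0.29 among cells named fibroblasts and 0.19 among cells named neuroblastoma when scaled by total UMIs. The ratio of Hoxd11 was -9.75 (-11.37 to -8.53) in cells named fibroblasts. In cells named neuroblastoma it was -10.48 taking KO at 3 UMIs over the group, and the exact interval had an upper limit of -10.18. By total UMIs Hoxd11 was 704-fold lower in KO among cells named fibroblasts and, with KO taken at 3 UMIs, 1246-fold lower among cells named neuroblastoma. Without cells holding 2 or more marker UMIs of the other cell types the ratio was -9.87 in cells named fibroblasts. In cells named neuroblastoma it was then -9.49, again with KO taken at 3 UMIs.

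Hoxd10, used in the lumbar spinal cord and the limb, gave 2 UMIs in KO and 1545 UMIs in WT cells named fibroblasts. Under the name neuroblastoma it gave 4 UMIs in KO and 1880 UMIs in WT cells. The log2 ratios were -9.86 (-12.90 to -8.0) and -8.80 (-10.68 to -7.44) for cells named fibroblasts and neuroblastoma, and -10.19 and -8.19 without cells holding 2 or more such marker UMIs. Hoxd12, a gene of the hand and foot plate, was at 0 UMIs in KO under both names, against 263 UMIs in WT cells named fibroblasts and 319 in WT cells named neuroblastoma. That is at least 86.0-fold lower in KO among cells named fibroblasts and at least 88.2-fold lower among cells named neuroblastoma by total UMIs, with log2 ratios of at most -6.72 and -6.66.

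Over the whole KO tumor library 5 of 5897 cells held a Hoxd11 UMI, 8 held Hoxd10 and 0 held Hoxd12. In the WT tumor library 2785, 2015 and 515 of 4955 cells held them. Of the 8 KO cells with Hoxd10, 2 were named fibroblasts, 3 neuroblastoma and 3 endothelial, and the 3 endothelial cells held 8 of the 14 UMIs. None of the KO cells with Hoxd10 or Hoxd11 shared a barcode with another library. In the KO sorted library 0 of 4305 cells held any of these genes, against 141 cells with Hoxd11 among 5219 in the WT sorted library. Both KO libraries therefore lacked these RNAs across nearly all cells.

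**Figure D1:**
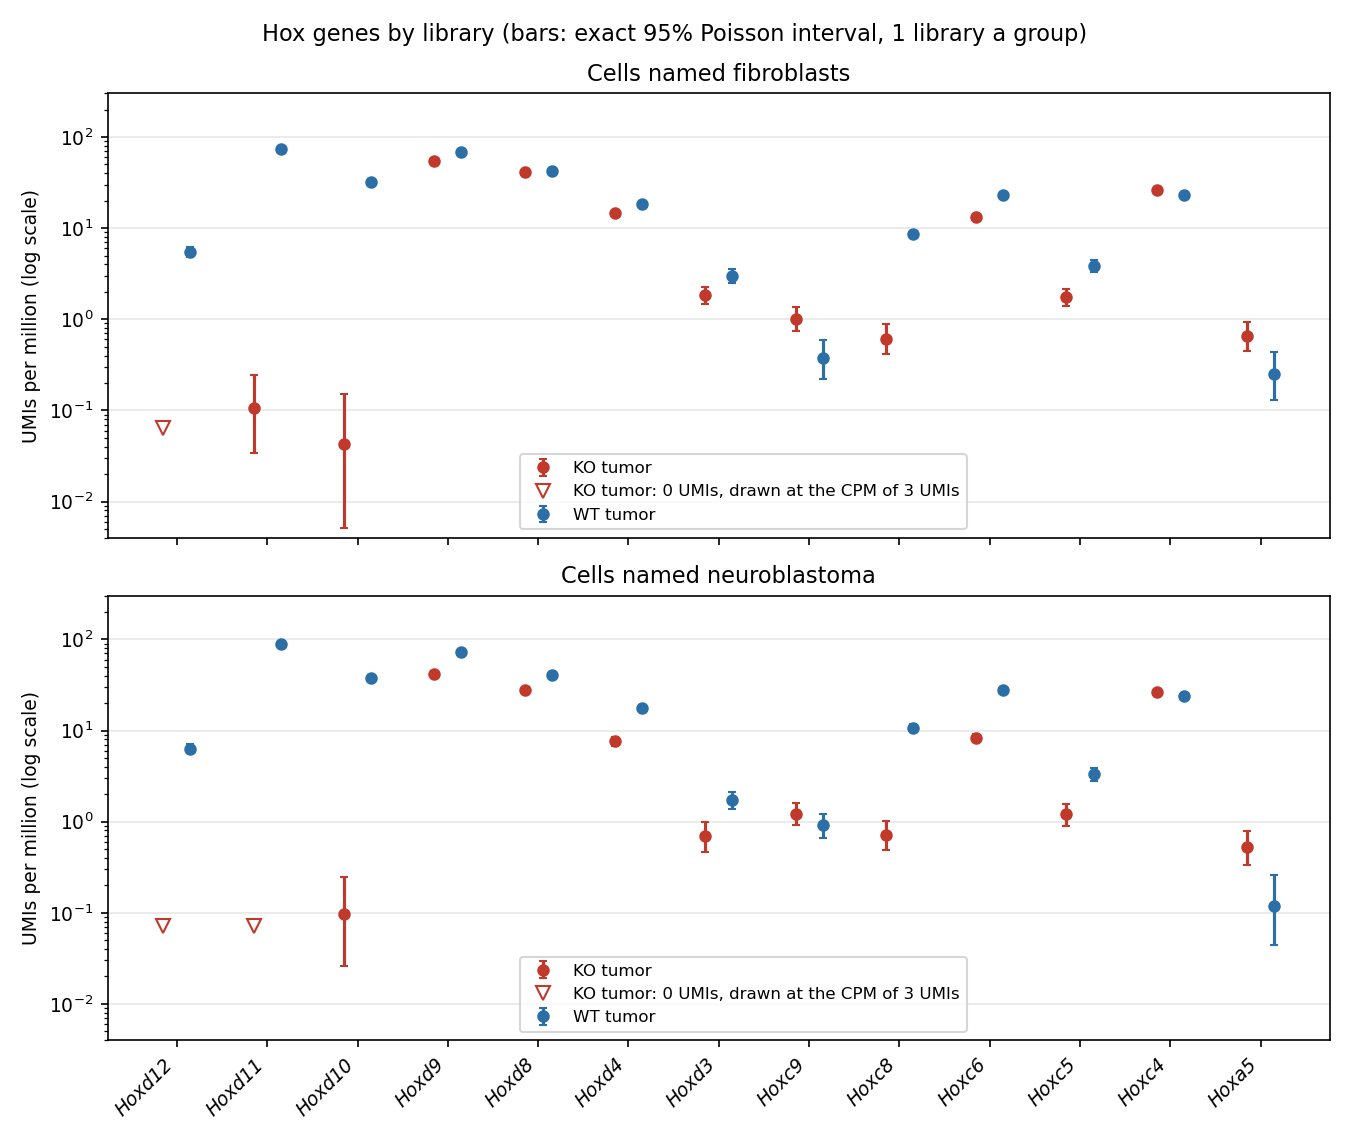
Level of the 13 Hox genes with most UMIs, in CPM on a log axis, in KO and WT tumor cells named fibroblasts (upper panel) and neuroblastoma (lower panel); bars are exact 95% Poisson intervals with 1 library a group, and open triangles stand for 0 UMIs at the level of 3. Hoxd12, Hoxd11 and Hoxd10 are at 0.106 CPM or less in KO and between 5.46 and 89.6 CPM in WT, whereas Hoxd9 is at 41.9 CPM or more in all 4 sets of cells.

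The other Hoxd genes kept their RNA in KO grafts. Hoxd9, a gene of the lower trunk and limb, measured 54.6 CPM in KO and 68.6 CPM in WT cells named fibroblasts, and 41.9 CPM in KO and 73.6 CPM in WT cells named neuroblastoma. Its log2 ratios were -0.62 (-0.70 to -0.55) in cells named fibroblasts and -1.0 (-1.09 to -0.92) in cells named neuroblastoma, and -0.61 and -0.999 without cells holding 2 or more marker UMIs of the other cell types. Hoxd8, a trunk gene, measured 41.7 CPM in KO and 41.9 CPM in WT cells named fibroblasts and 27.7 CPM in KO and 40.8 CPM in WT cells named neuroblastoma. Its ratios of -0.30 and -0.75 are the smallest reductions of the Hoxd cluster. Hoxd4, a gene of the neck vertebrae, had ratios of -0.63 in cells named fibroblasts and -1.42 (-1.61 to -1.23) in cells named neuroblastoma. Hoxd3, which shapes the first vertebra, had -0.99 (-1.39 to -0.60) in cells named fibroblasts, which turned to 0.40 after thinning every cell to 2000 UMIs, and -1.51 (-2.17 to -0.89) in cells named neuroblastoma. Hoxd3 and Hoxd4 overlap each other and the antisense Hoxd3os1, so their reads are uncertain; Hoxd3os1 itself had ratios of -0.48 and -0.85. Going along the cluster, the ratios thus stepped between Hoxd10 and Hoxd9 and then stayed between -0.30 and -1.51.

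Hoxd11 and Hoxd9 can be read against each other within the same cells, where the depth of a library cancels. Per 100 Hoxd9 UMIs there were 0.194 (0.0629 to 0.453) Hoxd11 UMIs in KO and 109 (104 to 114) in WT cells named fibroblasts. Among cells named neuroblastoma there were 0, with an upper limit of 0.211, in KO and 122 (117 to 127) in WT. The sorted libraries gave 0 in KO under both names, and 101 in WT cells named fibroblasts and 166 in WT cells named neuroblastoma. Tumor cells that the authors put under other names mostly had the same order, with 0 in KO and 76.5 in WT endothelial cells and 0 in KO and 63.3 in WT cells named cancer stem cells, but from 31 or fewer Hoxd11 UMIs in WT. The endothelial cells also held fibroblast markers, at 1101 CPM in KO and 2634 CPM in WT, and whether their Hoxd11 RNA is their own was not tested. Cells named Hematoietic_stem_cells had 0 in KO and 230 in WT, the WT value from 106 Hoxd11 UMIs. Cells named stem cells had 0 in both, from 70 Hoxd9 UMIs in KO and 10 in WT.

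In the Hoxc cluster the sharpest difference was at Hoxc8, a gene of the chest and of motor neurons that serve the forelimb. It gave 29 UMIs in KO and 411 UMIs in WT cells named fibroblasts, and 30 UMIs in KO and 542 UMIs in WT cells named neuroblastoma. The log2 ratios were -4.09 (-4.68 to -3.54) and -4.10 (-4.68 to -3.57) for fibroblasts and neuroblastoma, and -3.84 and -3.85 without cells holding 2 or more marker UMIs of the other cell types. KO grafts thus kept a trace of Hoxc8, which Hoxd11 and Hoxd12 lacked in cells named neuroblastoma. Hoxc6, also a gene of the chest and forelimb level, measured 13.2 CPM in KO and 23.0 CPM in WT cells named fibroblasts and 8.24 CPM in KO and 27.6 CPM in WT cells named neuroblastoma, with ratios of -1.09 (-1.24 to -0.95) and -1.93 (-2.11 to -1.76). Hoxc5, a neck-level gene, had ratios of -1.43 (-1.82 to -1.05) and -1.65 (-2.14 to -1.19), but its annotated span covers Hoxc6, Hoxc8, Hoxc9 and Hoxc10, so its counts are uncertain.

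Hoxc4 and Hoxc9 did not share that reduction. Hoxc4, at the other end of the cluster and active in the neck region, measured 26.5 CPM in KO and 23.1 CPM in WT cells named fibroblasts and 26.1 CPM in KO and 23.8 CPM in WT cells named neuroblastoma. Its ratios of -0.09 (-0.21 to 0.02) and -0.06 (-0.18 to 0.06) turned to 0.20 and 0.13 when scaled by total UMIs, so no direction is given for it. Hoxc9, which marks the chest level of the spinal cord, had 48 UMIs in KO and 18 UMIs in WT cells named fibroblasts and 51 UMIs in KO and 46 UMIs in WT cells named neuroblastoma. Its ratio of 1.15 (0.34 to 2.02) in cells named fibroblasts was under 2-fold with equal weight per cell and, at 0.95, without cells holding 2 or more leukocyte, endothelial or erythroid marker UMIs, and it was -1.31 after thinning every cell to 2000 UMIs. In cells named neuroblastoma Hoxc9 had a ratio of 0.23 (-0.38 to 0.83), and of -0.53 without those cells.

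**Figure D2:**
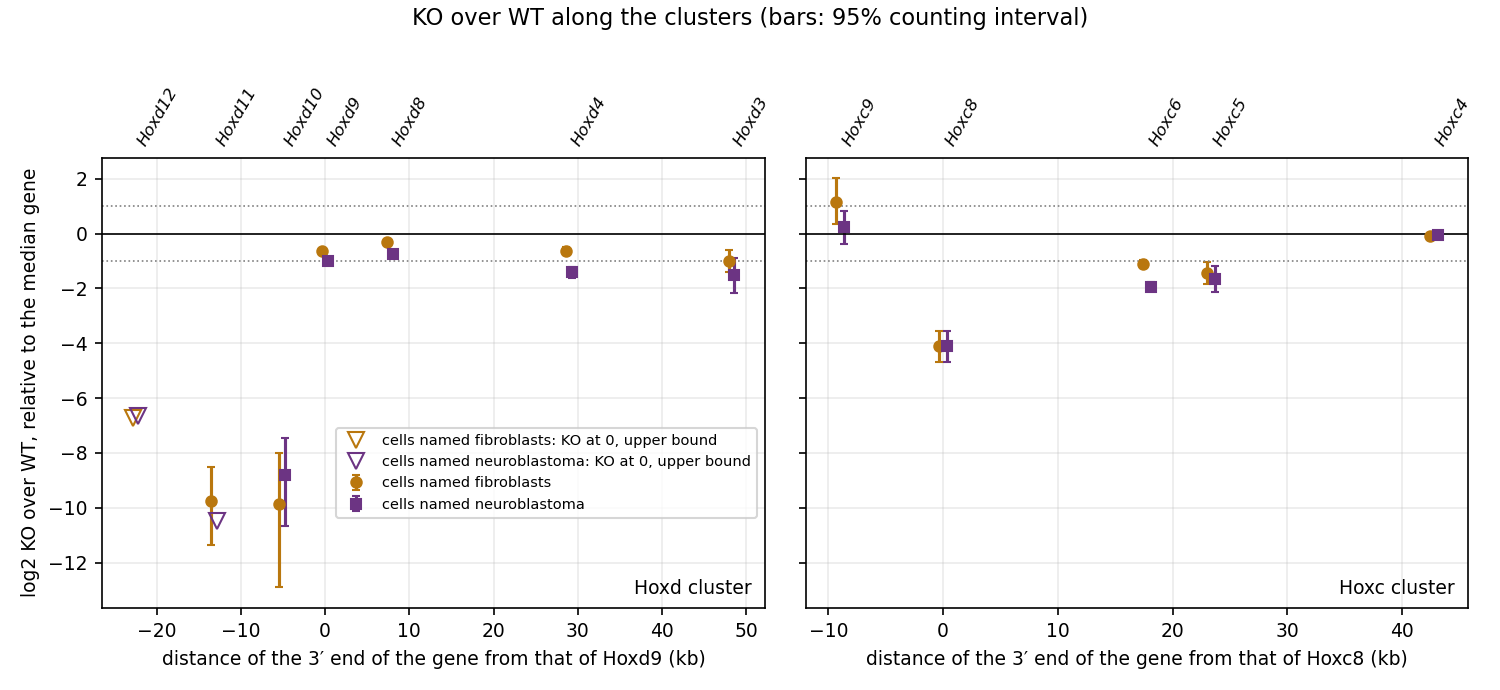
Log2 ratio, KO over WT and relative to the median gene, against the distance in kb of each gene's 3′ end from that of Hoxd9 (left) or Hoxc8 (right), for cells named fibroblasts and neuroblastoma; bars are 95% counting intervals, triangles upper bounds where KO is at 0, and dotted lines 2-fold. The Hoxd genes left of Hoxd9 lie at -6.66 or lower, those from Hoxd9 on between -0.30 and -1.51, and in the Hoxc cluster Hoxc8 lies lowest at -4.09 and -4.10.

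Of the 29 genes, 12 had at least 50 UMIs over both groups in cells named fibroblasts. Hoxc8, Hoxd10, Hoxd11 and Hoxd12 passed through the WT cells alone, there and in cells named neuroblastoma. Hoxd3, at 29 UMIs in KO and 87 in WT, did so in cells named neuroblastoma. The place of these genes among the lower ones is thus no support. At least 2-fold lower in KO were 6 of the 12 (Hoxc5, Hoxc6, Hoxc8, Hoxd10, Hoxd11 and Hoxd12), where 7.13% of all 13211 genes were. At least 2-fold higher was 1, Hoxc9, against 8.5% of all genes; Hoxd3 lay just outside the threshold at -0.99. Scaled by total UMIs Hoxc6 was -0.80 and no longer past 2-fold. In cells named neuroblastoma 9 of 12 were at least 2-fold lower in KO, the same 6 with Hoxd3, Hoxd4 and Hoxd9, against 7.34% of 12858 genes, and 0 were higher, against 7.02%. Hoxd9 lay just inside the threshold at -1.0, and outside it at -0.81 by total UMIs. The median ratio of the 12 genes was -1.04 in cells named fibroblasts and -1.58 in cells named neuroblastoma, where that of all genes is 0 by construction. Reductions of at least 256-fold were seen for 11 of 13211 genes (0.0833%) in cells named fibroblasts and 18 of 12858 (0.14%) in cells named neuroblastoma. Of 12735 genes measured under both names, 9 were that much lower in KO under both, and Hoxd10 and Hoxd11 were among the 9.

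The rest of the Hox genes were close to silent. The 16 genes outside the 13 drawn had 20 UMIs or fewer each over both names in both tumor libraries, Hoxa3 the most, and 64 in all of 43677 Hox UMIs. Of the 16, 6 had 0. Of the Hoxa cluster, Hoxa5, a gene of the lung and neck, had 31 UMIs in KO and 12 UMIs in WT cells named fibroblasts. It had 22 UMIs in KO and 6 UMIs in WT cells named neuroblastoma, and 71 over all 4 sets of cells. Its log2 ratios, KO over WT, were 1.11 (0.10 to 2.20) in cells named fibroblasts and 1.95 (0.60 to 3.54) in cells named neuroblastoma. Under both names it was below the minimum of 50 UMIs and is not in the counts of higher genes. The Hoxd cluster held 71.8% of the Hox UMIs in KO and 80.4% in WT cells named fibroblasts, and 67.0% in KO and 80.03% in WT cells named neuroblastoma. The Hoxc cluster held most of the rest, with 27.4% in KO and 19.4% in WT cells named fibroblasts and 32.3% in KO and 19.9% in WT cells named neuroblastoma. Hoxb RNA was at or under 0.02% in each. All Hox genes together gave 157 CPM in KO and 303 CPM in WT cells named fibroblasts, and 116 CPM in KO and 334 CPM in WT cells named neuroblastoma.

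Grouped by position number, genes 9 to 13 made up 35.6% of the Hox UMIs in KO and 59.7% in WT cells named fibroblasts, and 37.2% in KO and 62.3% in WT cells named neuroblastoma. Genes 4 to 8 measured 99.1 CPM in KO and 119 CPM in WT cells named fibroblasts and 72.2 CPM in KO and 124 CPM in WT cells named neuroblastoma. Genes 1 to 3 stayed at or under 3.01 CPM in all. Most of the missing Hox RNA of KO grafts was therefore in genes 9 to 13, which were at 56.0 CPM in KO and 181 CPM in WT cells named fibroblasts.

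Per cell, a Hoxd11 UMI was found in 0.201% of KO and 59.3% of WT cells named fibroblasts, and in 0% of KO and 73.5% of WT cells named neuroblastoma; the 0 of 1283 cells has an exact upper limit of 0.287%. Hoxd9 was found in 52.8% of KO and 64.4% of WT cells named fibroblasts and in 61.0% of KO and 80.3% of WT cells named neuroblastoma. Cells named B cells, which should lack Hoxd11 RNA, had a Hoxd11 UMI in 0% in every library, at a median of 1153 UMIs in KO and 1491 UMIs in WT tumors, far below the depth of the cells named fibroblasts or neuroblastoma. Leukocyte names together had a Hoxd11 UMI in 0 of 1237 KO and 15 of 321 WT tumor cells (4.67%), and among them cells named M2 macrophages in 11 of 81 WT tumor cells (13.6%). Any Hox gene was seen in 83.0% of KO and 95.7% of WT cells named fibroblasts and in 88.9% of KO and 99.3% of WT cells named neuroblastoma, against 1.22% of KO and 1.72% of WT tumor B cells. Thinned to 2000 UMIs a cell, the shares became 27.2% of KO and 44.2% of WT cells named fibroblasts and 21.98% of KO and 48.8% of WT cells named neuroblastoma. The order of KO and WT was thus kept at equal depth. The Hoxd11 share at 2000 UMIs was 0.0403% (1 cell) in KO and 15.0% in WT cells named fibroblasts, and 0% in KO and 17.0% in WT cells named neuroblastoma.

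The share of cells with Hoxd9 climbed with the UMIs of the cell in both groups, whereas that of Hoxd11 in WT did not climb steadily. Among KO cells named fibroblasts Hoxd9 was found in 36.5%, 50.3%, 61.7% and 75% of cells at 5000 to 10000, 10000 to 20000, 20000 to 40000 and 40000 or more UMIs, and among WT cells in 44.96%, 58.2%, 76.6% and 88.5%. Hoxd11 was found in 37.2%, 64.6%, 55.4% and 67.3% of WT cells named fibroblasts over the same bins, and in 0.380% or less of KO cells in each. Among WT cells named neuroblastoma the Hoxd11 share was 76.5% at 20000 to 40000 UMIs and 57.4% at 40000 or more. It was 76.1% at 10000 to 20000 UMIs, so the deepest WT cells of that name lacked Hoxd11 more often than those of the middle bins.

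**Figure D3:**
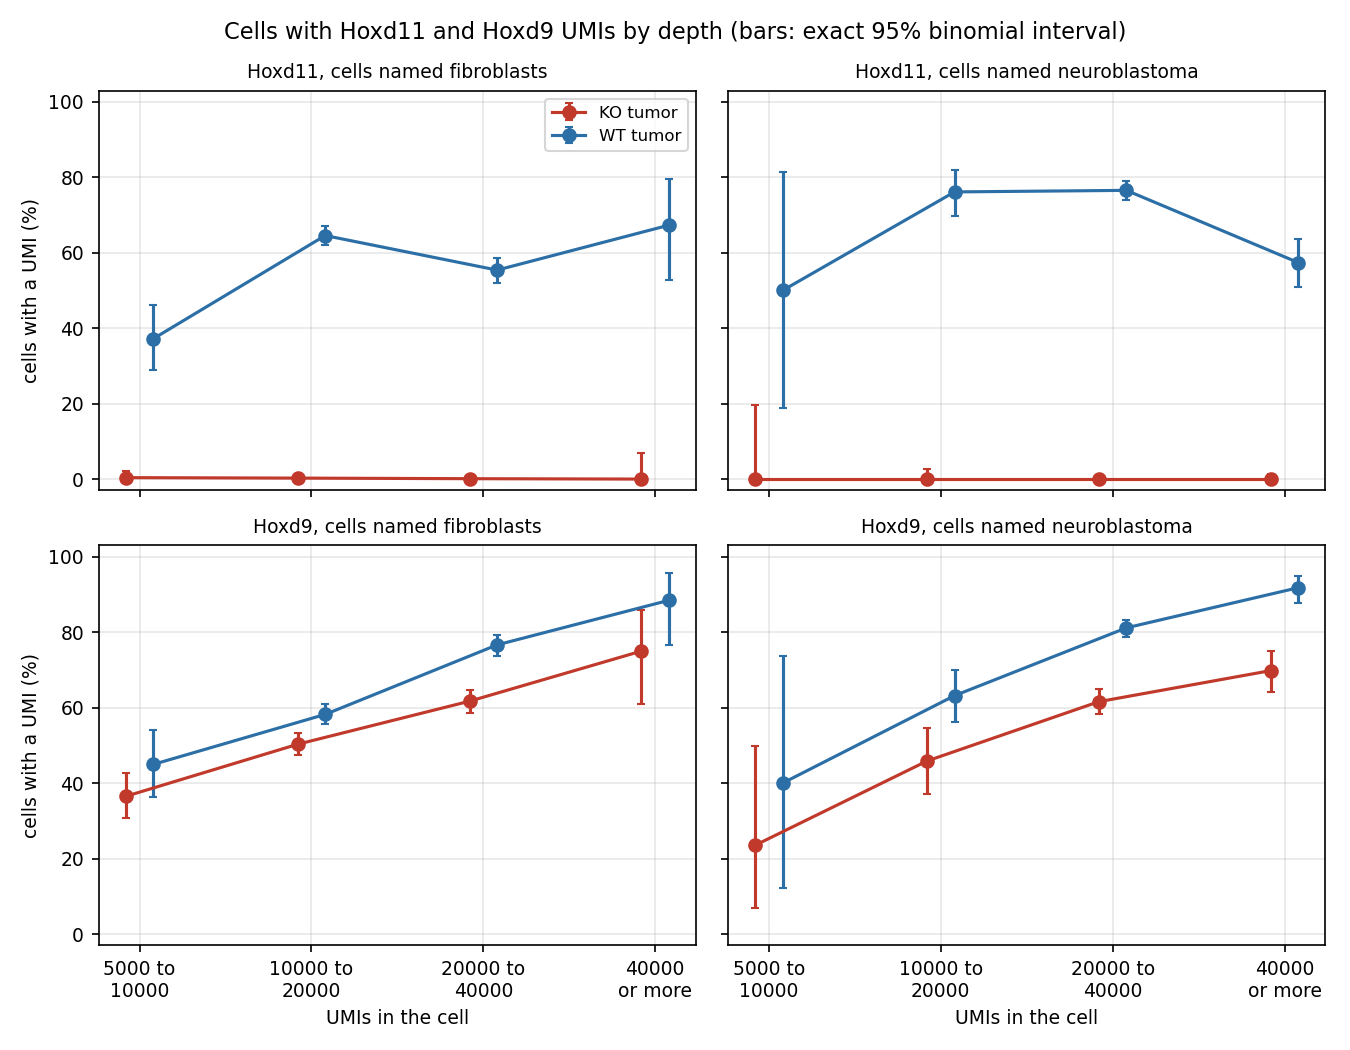
Share of cells with a UMI of Hoxd11 (upper panels) and Hoxd9 (lower panels) by the UMIs in the cell, for KO and WT tumor cells named fibroblasts (left) and neuroblastoma (right), with exact 95% binomial intervals. Hoxd11 is at 0.380% or less of KO cells in every bin, Hoxd9 climbs with depth in both groups, and the Hoxd11 share of WT cells named neuroblastoma is 57.4% in the deepest bin against 76.5% in the one before it.

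Hox genes also varied together within the WT library. Among WT cells of 20000 UMIs or more named fibroblasts, Hoxd10 was found in 64.7% (60.5 to 68.8) of the 533 cells with a Hoxd11 UMI and in 12.4% (9.43 to 15.99) of the 418 without, although the cells without were deeper, with a median of 26520 UMIs against 22974. Among WT cells named neuroblastoma the shares were 71.7% of 1066 and 22.7% of 388 cells. For Hoxd9 and Hoxd11 the names differed: 55.2% of WT cells named fibroblasts with Hoxd9 and 58.8% of those without held Hoxd11, with overlapping intervals. Among WT cells named neuroblastoma 74.9% (72.3 to 77.3) of cells with Hoxd9 and 65.7% (59.5 to 71.6) of those without held Hoxd11. There the cells with Hoxd9 were deeper, at a median of 30458 UMIs against 26169, and the part of depth in this difference was not tested. Hoxd8 was found in 60.3% of cells with Hoxd9 and 38.3% of those without in KO cells named fibroblasts, and in 63.5% and 52.3% in WT. Hoxc8 was found in 17.3% of WT cells named fibroblasts with Hoxc6 and in 7.91% of those without. These cells share a library and free RNA, and the shares are given as a description.

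That split was followed into other genes, a choice made after its values were seen. Of the 951 WT cells named fibroblasts with 20000 UMIs or more, 359 (37.7%) had no UMI of Hoxd10, Hoxd11 or Hoxd12, at a median of 27196 UMIs against 22957 in the 592 that had one. Hoxc8 was found in 0.992% of the 1008 KO cells of that depth, here called deep, in 3.90% of the WT cells without Hoxd10 to Hoxd12 and in 16.4% of the WT cells with them. Hoxc6 was found in 21.6% of the KO cells, 29.2% of the WT cells without and 46.8% of the WT cells with them. Hoxc4 ran the other way between the WT cells, with 50.7% in those without and 36.0% in those with them, and 43.75% in KO. For Hoxc8 and Hoxc6 the deep WT cells without Hoxd10 to Hoxd12 thus lay nearer to the KO cells than the other WT cells did. For Hoxd8 the WT cells with them lay nearer, at 57.3% against 67.1% in those without. In KO cells Hoxd8 was found in 51.7% at 20000 to 40000 UMIs and 57.7% at 40000 or more. Under this name Hoxd9 did not split: it was found in 78.0% of WT cells without and 76.9% of WT cells with Hoxd10 to Hoxd12, and in 62.4% of KO cells.

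Cells named neuroblastoma gave the same picture for Hoxc8 and Hoxc6. Of 1454 deep WT cells, 283 (19.5%) had no UMI of Hoxd10 to Hoxd12, again the deeper ones at a median of 35155 UMIs against 28242. Hoxc8 was found in 2.13% of KO cells, 5.30% of WT cells without and 20.3% of WT cells with Hoxd10 to Hoxd12. Hoxc6 was found in 20.7% of KO cells, 30.7% of WT cells without and 58.1% of WT cells with them. Hoxd8 did not share this, at 68.6% of WT cells without and 65.8% of WT cells with them. Its share in KO cells was 50.1% at 20000 to 40000 UMIs and 58.9% at 40000 or more. Hoxc4 was again higher in the WT cells without, at 55.1% against 46.2%. As levels, Hoxc8 measured 1.999 CPM in the WT cells without and 13.2 CPM in those with Hoxd10 to Hoxd12, and Hoxc6 measured 11.1 CPM in the WT cells without and 32.1 CPM in those with them. Hoxd9 was found in 76.7% (71.3 to 81.5) of WT cells without and 84.5% (82.3 to 86.5) of WT cells with them, a split that cells named fibroblasts did not show, and measured 77.3 CPM in the WT cells without and 73.4 CPM in those with them.

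**Figure D4:**
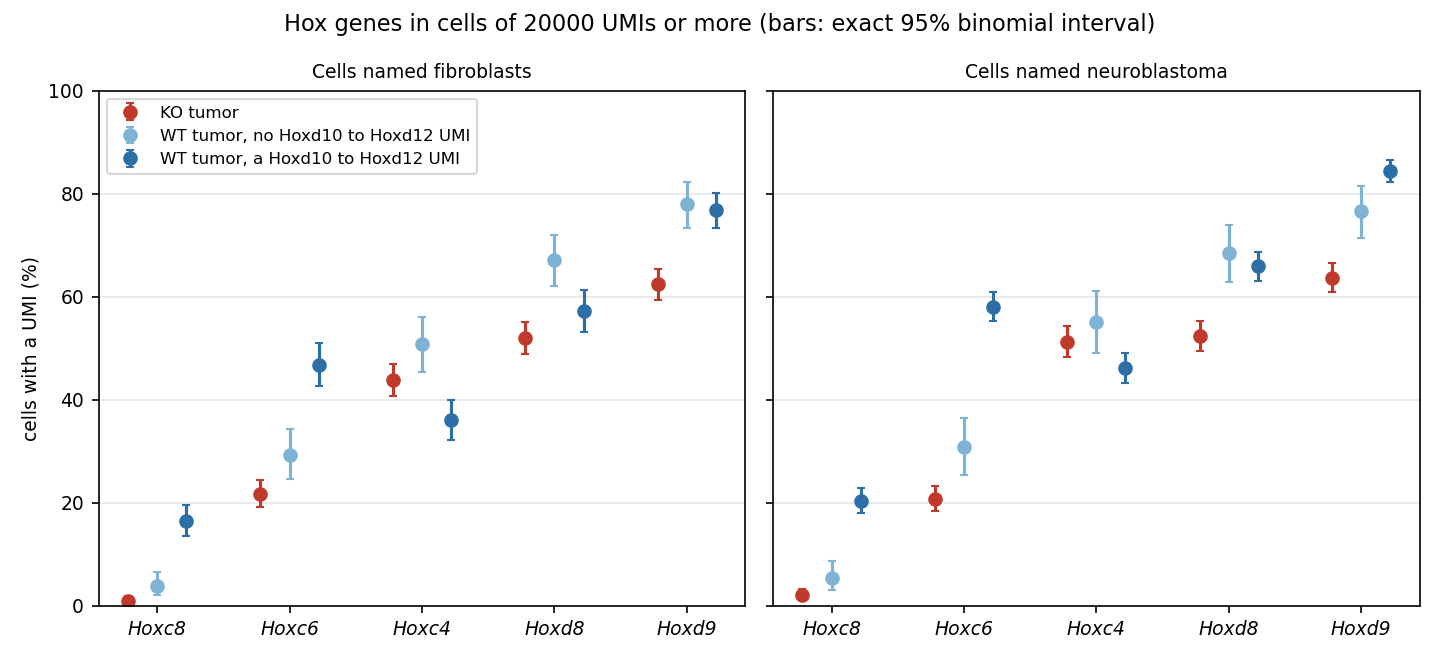
Share of cells of 20000 UMIs or more with a UMI of Hoxc8, Hoxc6, Hoxc4, Hoxd8 and Hoxd9, with exact 95% binomial intervals, in KO tumor cells and in WT tumor cells without and with a Hoxd10 to Hoxd12 UMI, for cells named fibroblasts (left) and neuroblastoma (right). Hoxc8 is at 3.90% and 5.30% in WT cells without and at 16.4% and 20.3% in WT cells with Hoxd10 to Hoxd12, whereas Hoxd9 is at 76.7% or more in all 4 WT sets.

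A single deep cell of a KO graft read a median of 2 Hox genes under either name, against 4 in WT cells named fibroblasts and 5 in WT cells named neuroblastoma. No Hox UMI at all was found in 10.8% of deep KO and 1.89% of deep WT cells named fibroblasts, and in 9.24% of KO and 0.413% of WT cells named neuroblastoma.

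Set against each other within a library, cells named neuroblastoma and cells named fibroblasts differed past 2-fold at 1 Hox gene in each tumor. Lists this short do not set the Hox genes apart from all genes, few of which were past 2-fold either. Hoxd3 in the KO tumor had 29 UMIs in cells named neuroblastoma and 87 in cells named fibroblasts. It thus passed 50 UMIs through the cells named fibroblasts alone. In the KO tumor 10 Hox genes passed 50 UMIs; 1 of them, Hoxd3 with a log2 ratio of -1.29 (-1.95 to -0.67), was at least 2-fold lower in cells named neuroblastoma, where 4.68% of all genes were, and 0 were higher, where 4.45% of all genes were. In the WT tumor 12 passed; 1, Hoxc9 at 1.30 (0.48 to 2.17), was at least 2-fold higher, against 3.78% of all genes, and 0 were lower, against 2.26%. Without cells holding 2 or more leukocyte, endothelial or erythroid marker UMIs Hoxc9 was at 1.36 but under the minimum of 50 UMIs, and after thinning it was -0.48. Smaller differences differed in sign between the libraries: Hoxc6 had -0.57 (-0.76 to -0.37) in KO and 0.27 (0.15 to 0.38) in WT, and Hoxd9 had -0.27 (-0.36 to -0.18) in KO and 0.11 (0.04 to 0.17) in WT. Hoxd4 was lower in cells named neuroblastoma of the KO tumor at -0.82, against -0.03 in WT, and Hoxd8 at -0.48, against -0.04 in WT.

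The sorted libraries held few such cells: 78 KO and 164 WT cells named fibroblasts, of which 18 and 27 shared a barcode with another library, and 171 KO and 205 WT cells named neuroblastoma, of which 20 and 11 did. Those named neuroblastoma carried leukocyte markers at 4606 CPM in KO and 4113 CPM in WT, so the name covers other cells there than in the whole tumors. Their fibroblast markers summed to 733 CPM in KO and 1462 CPM in WT. Macrophage markers summed to 1105 CPM in KO and 4864 CPM in WT, and T cell markers to 549 CPM in KO and 207 CPM in WT. The mix of cells under this name thus differed between KO and WT, and its part in the ratios below was not tested. In cells named fibroblasts Hoxd11 measured 0 CPM in KO and 67.2 CPM in WT, Hoxd10 0 CPM in KO and 26.9 CPM in WT, and Hoxc8 2.13 CPM in KO and 8.68 CPM in WT. Hoxd9 remained at 33.0 CPM in KO and 66.6 CPM in WT, and Hoxd8 at 48.5 CPM in KO and 41.6 CPM in WT. The absence of Hoxd11 and Hoxd10 in KO was thus also read in the sorted pair of libraries, some of whose cells share a barcode with another library. Hoxd9 differed, being past 2-fold lower here but at -0.62 in cells named fibroblasts of the whole tumors. Whether the sorted cells came from other tumors was not tested, so they are not counted as a replicate. At least 2-fold lower in KO were 4 of 7 genes that passed in cells named fibroblasts, against 14.2% of all genes, and 4 of 6 in cells named neuroblastoma, against 12.9%, in both cases Hoxc6, Hoxd9, Hoxd10 and Hoxd11. Hoxd10 and Hoxd11 had 0 UMIs in KO and passed through WT alone. Hoxc6 did so too, at 23 UMIs in KO and 96 in WT cells named fibroblasts. In cells named neuroblastoma Hoxc6, at 2.51 CPM in KO and 11.9 CPM in WT, also passed through WT alone. Hoxd9 did so there as well, at 26 UMIs in KO and 215 in WT. Except for Hoxd9 in cells named fibroblasts, at 62 UMIs in KO and 299 in WT, the place of these genes among the lower ones is thus no support. Without cells that share a barcode Hoxc6 was -0.86, within 2-fold, in cells named fibroblasts, and in cells named neuroblastoma Hoxc6 was -4.08 against -2.51 with them, Hoxd9 -3.17 against -2.15 and Hoxd8 -1.39 against -0.30.

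Some other names had the same clusters in use and some had others. Tumor cells named cancer stem cells had Hoxd9 at 41.4 CPM in KO and 56.9 CPM in WT and Hoxd8 at 29.3 CPM in KO and 24.4 CPM in WT, and Hoxd genes made up 72.5% of their Hox UMIs in KO and 78.8% in WT. Endothelial cells of the tumors, 13 in each library, had Hoxa7 at 57.2 CPM in KO and 36.5 CPM in WT and Hoxb7 at 42.9 CPM in KO and 47.7 CPM in WT, genes that gave 9 UMIs and 1 UMI in all tumor cells of both names. Among these endothelial cells Hoxd10 was not missing in KO, with 38.1 CPM from 8 UMIs in KO and 33.7 CPM from 12 UMIs in WT, while Hoxd11 had 0 UMIs in KO and 13 UMIs in WT. Their fibroblast markers summed to 1101 CPM in KO and 2634 CPM in WT, so RNA of other cells may be among these counts. Leukocytes of the sorted libraries carried mostly Hoxb genes, which made up 63.75% of 309 Hox UMIs in KO and 66.7% of 409 in WT. In the whole tumors the same leukocyte names had 18.5% Hoxb among 119 Hox UMIs in KO and 4.62% among 130 in WT, and 52.9% Hoxd in KO and 69.2% in WT. Hoxb4, a gene of blood stem cells, led those of the sorted libraries at 5.97 CPM in KO and 4.52 CPM in WT. The same gene gave 17 UMIs in KO (4.73 CPM) and 18 UMIs in WT (2.23 CPM) sorted cells named neuroblastoma. Cells named stem cells, 218 in the KO tumor and 8 in the WT tumor, had Hoxc4 at 23.2 CPM in KO from 188 UMIs, in 52.3% of cells, with Hoxd9 at 8.63 CPM.

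**Figure D5:**
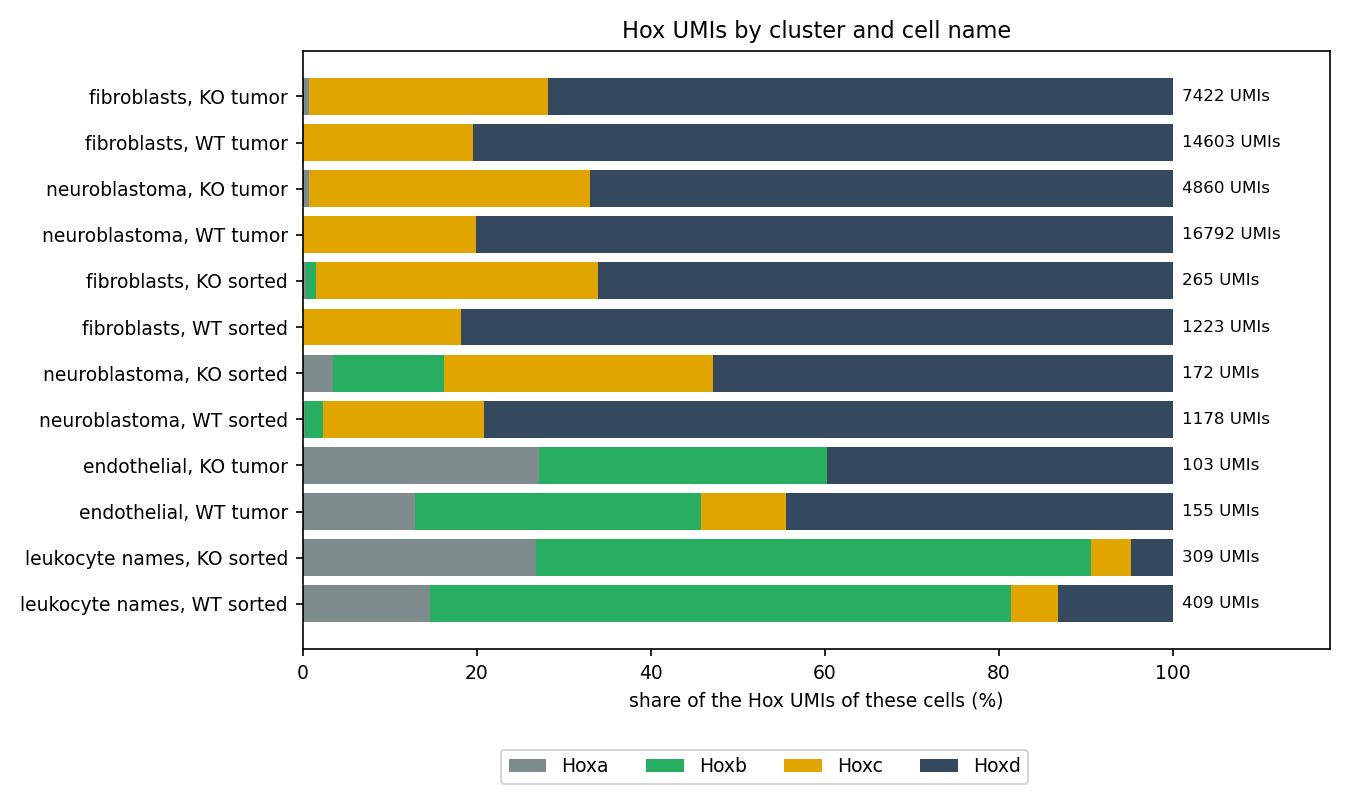
Share of the Hox UMIs that falls to the Hoxa, Hoxb, Hoxc and Hoxd clusters for each cell name, KO above WT, with the number of Hox UMIs printed at the right. Hoxd and Hoxc fill the bars of tumor cells named fibroblasts and neuroblastoma, and Hoxb is the largest share in leukocytes of the sorted libraries, at 63.75% in KO and 66.7% in WT.

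The regulators of the clusters were within 2-fold in the whole tumors. Of 19 Polycomb genes and 12 trithorax and menin genes, all measured under both names, 0 were 2-fold higher or lower in KO, against 8.5% higher and 7.13% lower of all genes in cells named fibroblasts and 7.02% and 7.34% in cells named neuroblastoma. In the sorted libraries 3 of 19 Polycomb genes were higher in KO cells named fibroblasts, against 11.2% of all genes. There 5 of 19 Polycomb and 2 of 12 trithorax and menin genes were higher in KO cells named neuroblastoma, against 11.6%, and 0 were lower under either name. The mix of cells named neuroblastoma differed between the sorted libraries, and its part in these counts was not tested. Rbbp7, a histone-binding partner of Polycomb complexes, measured 159.7 CPM in KO and 156 CPM in WT cells named fibroblasts and 234 CPM in KO and 209 CPM in WT cells named neuroblastoma. Rbbp4 and Cbx6, of the same class, had log2 ratios between -0.60 and -0.20. Ezh2, the Polycomb methyltransferase, measured 111 CPM in KO and 106 CPM in WT cells named neuroblastoma. Psip1, which tethers menin and Kmt2a to chromatin, had log2 ratios of -0.28 in cells named fibroblasts and -0.11 in cells named neuroblastoma, which turned to 0.01 and 0.08 by total UMIs; Ash2l, Kdm6b and Kmt2a lay between 0.11 and 0.29. Genes that flank the clusters were also within 2-fold, 0 of 14 in cells named fibroblasts and 0 of 13 in cells named neuroblastoma being past it, where 8.5% of all genes were higher and 7.13% lower in cells named fibroblasts and 7.02% higher and 7.34% lower in cells named neuroblastoma; a list this short does not set them apart. Hnrnpa1, an RNA-binding protein gene next to the Hoxc cluster, had -0.55 and -0.57. Hnrnpa3, its relative near the Hoxd cluster, had 0.26 and 0.30, and Atp5g3, of the same list, 0.30 and 0.53. Lnpk, beyond the Hoxd13 end of the Hoxd cluster, had ratios of 0.13 and 0.23 for fibroblasts and neuroblastoma, and Mtx2, beyond the other end, -0.23 under both names, which turned to 0.07 by total UMIs in cells named fibroblasts; both were named for their place, after the values were seen.

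Of 9 cofactor genes, 2 were at least 2-fold higher in KO under both names, where 8.5% of all genes were in cells named fibroblasts and 7.02% in cells named neuroblastoma. Pbx3, a partner of Hox proteins on DNA, measured 175 CPM in KO and 65.0 CPM in WT cells named fibroblasts and 169 CPM in KO and 57.4 CPM in WT cells named neuroblastoma, with ratios of 1.13 and 1.37. Pknox2, a homeodomain protein of the same class, had ratios of 1.92 and 1.99. Meis3 was at least 2-fold lower in cells named neuroblastoma at -1.04. Meis2, another cofactor, had ratios of 0.43 and 0.31.

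Other genes of limb and body position moved in both directions. Of 11 measured, 4 were at least 2-fold higher (Tbx2, Tbx5, Shox2 and Msx2) and 4 lower (Tbx4, Tbx18, Prrx1 and Prrx2) in KO cells named fibroblasts, against 8.5% higher and 7.13% lower of all genes. In KO cells named neuroblastoma 3 were higher (Tbx2, Shox2 and Msx2) and 5 lower, the same 4 and Gdf11, a growth factor that sets the timing of posterior Hox genes in the embryo, against 7.02% higher and 7.34% lower of all genes. Prrx1, a transcription factor of limb mesenchyme, measured 100 CPM in KO and 362 CPM in WT cells named fibroblasts and 67.3 CPM in KO and 366 CPM in WT cells named neuroblastoma, with ratios of -2.14 and -2.63. Its relative Prrx2 had ratios of -2.24 and -2.01. Tbx5, a forelimb gene, measured 3.79 CPM in KO and 0.748 CPM in WT cells named fibroblasts, and Tbx4, a hindlimb gene, had a ratio of -1.95 there. In those WT cells Tbx5 was under 50 UMIs and passed the minimum through KO alone, so its place among the higher genes is no support. Whether others of the 11 passed through 1 group alone is not given here. Tbx3 was within 2-fold at -0.79 in cells named fibroblasts and -0.50 in cells named neuroblastoma. With 1 library a group the host genotype and any other difference between the grafts cannot be told apart.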

How the data were processed

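Single cells were read with the 10x 3′ v3 kit from whole tumors or sorted CD45+ cells, per the labels' protocols. Cell Ranger 6.0.1, Seurat 4.0.5 and mm10 are named in the submitters' processing notes, with no role. The deposited matrix holds natural log values per cell, ln(1 + 10000 × UMI share), per the values themselves; the UMI counts were recovered from the totals the authors deposited per cell, and all 60957742 values above 0 came out whole within 0.01 UMI. Cell names are the authors'; no doublet caller was run. UMIs were summed by library and name and given as CPM (per 1000000). Shares and ratios carry exact 95% intervals (Clopper-Pearson, Poisson, conditional binomial; scipy 1.17.1, Python 3.11.15), tested on simulated data; they cover counting error only. Ratios need 50 UMIs over both groups; a gene at 0 is set to 3 UMIs over the group, in the same unit of counts. All 29 genes are accounted for, and those with at least 50 UMIs over both tumor libraries were named; of each other list, the 3 genes with most UMIs and those past 2-fold were. Some items are not reported here. The members, lists and alternatives were chosen with earlier results of these data known. No p-value was computed, since each group is 1 library.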

Additional observations from a re-analysis of the deposited data

Results flagged for a closer look

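The log2 ratio of Hoxc6, cells named neuroblastoma over cells named fibroblasts, was -0.57 in the KO tumor and 0.27 in the WT tumor, a difference of -0.83 with opposite signs. That of Hoxd9 was -0.27 in the KO tumor and 0.11 in the WT tumor, a difference of -0.38, again with opposite signs, which it kept when scaled by total UMIs (-0.38 in KO and 0.10 in WT). Both stood out because the intervals of counting error lay on opposite sides of 0. With 1 library a group neither difference was tested.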

How the results depend on the processing

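Of 397 values recomputed under the alternatives, 326 stayed inside their counting interval and 19 changed sign. The alternatives differed: 51 of 51 values stayed inside with a minimum of 10 UMIs, but 13 of 44 after thinning to 2000 UMIs a cell. Of the values past 2-fold 2 changed sign, both Hoxc9 after thinning. They were KO over WT in cells named fibroblasts (-1.31) and neuroblastoma over fibroblasts in the WT tumor (-0.48). Ratios of Hoxd11 in cells named fibroblasts ran from -10.77 to -9.05, of Hoxd10 from -10.19 to -6.14 and of Hoxc8 from -4.14 to -3.20. Thinning, which leaves fewer genes with 50 UMIs by construction, gave 3 genes at least 2-fold lower in KO cells named fibroblasts and 4 in those named neuroblastoma, 0 higher in KO cells named fibroblasts, 0 lower in neuroblastoma over fibroblasts in the KO tumor and 0 higher in the WT tumor. Equal weight per cell and leaving out cells with 2 or more leukocyte, endothelial or erythroid marker UMIs each gave 0 higher in KO cells named fibroblasts, and the second also 0 higher in neuroblastoma over fibroblasts in the WT tumor. A minimum of 10 UMIs gave 3 higher in KO cells named fibroblasts, 1 higher in KO cells named neuroblastoma and 1 lower in neuroblastoma over fibroblasts in the WT tumor; pooling the names gave 1 higher in KO. Leaving out cells with a shared barcode, an alternative chosen after seeing the data, gave 3 genes lower in KO among sorted cells named fibroblasts and 5 among those named neuroblastoma, against 4 in each. Scaling by total UMIs gave 5 lower in KO cells named fibroblasts and 8 in those named neuroblastoma. Thinned to 5000 UMIs, any Hox gene was seen in 51.0% of KO and 73.8% of WT cells named fibroblasts and in 42.0% of KO and 77.1% of WT cells named neuroblastoma. No paired analysis was possible because each group is 1 library whose cells carry no replicate number.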
